A study of Rattus norvegicus with 4 samples.

Results

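N6-methyladenosine (m6A) peaks were described for the genes of translation initiation and elongation factors in the hypothalamic arcuate nucleus (ARC) of female Sprague-Dawley rats. The members were chosen by symbol and by the presence of a measured peak: every gene whose symbol starts with Eif or Eef followed by a digit and that had at least 1 entry in the deposited peak tables, with the 3 symbols marked -ps left out. This gave 56 of 14750 genes. Their presence in the tables is therefore what chose them and is not a finding. m6A was measured by methylated RNA immunoprecipitation sequencing (MeRIP-seq), in which RNA fragments pulled down with an antibody against m6A (the IP) are sequenced beside the same RNA before the pull-down (the input). There were 4 libraries, an input and an IP for each of the groups titled ARC_212 and ARC_352. The study's text gives the ages as 3 weeks (prepubertal) and 5 weeks (early pubertal), which the sample titles do not spell out, and the rats at both ages were females of normal development that carried no treatment. Tissue of 3 rats was pooled into 1 library of each kind per age, so there are no replicates, no test and no p-value for any difference between the ages, and age cannot be told apart from the pool or the library.

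Protein synthesis starts when the small ribosomal subunit, loaded with initiator tRNA by eIF2 and held by eIF3, is brought to the capped end of a message by the eIF4 factors and scans to a start codon. Phosphorylation of eIF2 by stress kinases and sequestration of the cap-binding protein eIF4E by its binding proteins are the main brakes on this step, and the second one is released by mTOR signalling. Elongation is then carried by eEF1, which delivers aminoacyl-tRNAs, and eEF2, which moves the ribosome along. m6A is a common internal mark of messenger RNA, placed mostly in long exons and near stop codons, and is read by proteins that alter the decay, splicing or translation of the message.

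The 3-week list holds 29653 peaks and the 5-week list 33056. Of the 56 genes, 51 had a peak at 3 weeks (106 peaks), 54 at 5 weeks (124 peaks) and 49 at both ages. Enrichment is given throughout as the log2 of IP over input, so that 1 unit is 2-fold. The median enrichment of the members' peaks was 2.59 at 3 weeks and 2.41 at 5 weeks, against 3.17 and 2.81 over all listed peaks. The middle member peak was thus enriched 6.02-fold over input at 3 weeks, and the middle peak of all genes 9.01-fold. The range over the members was 1.25 to 11.72 at 3 weeks and 1.19 to 9.06 at 5 weeks. A member gene had a median of 2 peaks at either age, the same as over all genes, and the largest number was 5 at 3 weeks and 7 at 5 weeks, the latter in Eif4g1.

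To compare the ages without choosing peaks for their change, peaks of the 2 lists were paired where they overlapped on the same strand of the same gene and each was the other's longest overlap. This gave 22279 pairs, 83 of them in 47 member genes. A peak is called stronger or weaker at 5 weeks where its enrichment differed by at least 2-fold between the ages, which is a size and not a test. Among the members 1 pair was stronger and 8 were weaker. Over all pairs 4.85% were stronger and 15.6% weaker, so the members' shares, 1.2% and 9.64%, were below the background in both directions. The median difference, 5 minus 3 weeks, was -0.24 in the members and -0.31 over all pairs, which correspond to 0.844 and 0.807 times the 3-week enrichment. Of the 83 pairs 60 were lower and 23 higher at 5 weeks (27.7% higher, against 31% over all pairs). Of the 23 member genes with more than 1 pair, 11 were lower in all of them, 1 was higher in all and 11 held pairs of both kinds (47.8%, against 52.5% of all such genes).

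**Figure D1:**
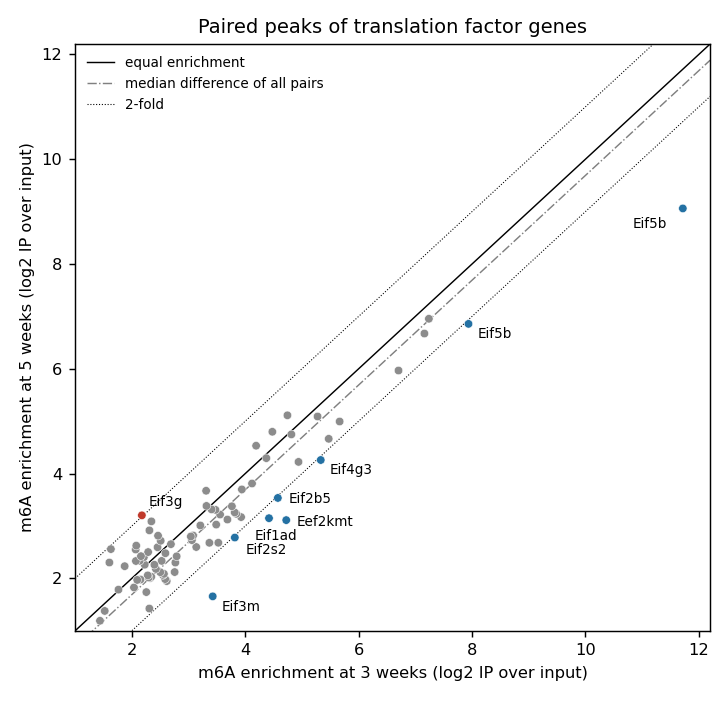
Each point is 1 of the 83 paired peaks, with its log2 enrichment over input at 3 weeks on the x axis and at 5 weeks on the y axis. Red marks the 1 pair at least 2-fold stronger at 5 weeks (Eif3g) and blue the 8 at least 2-fold weaker, and most points lie close to the dash-dotted line at the median difference of all pairs, -0.31.

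Because the median of all pairs was below 0, the counts depend on whether it is taken as the zero line. Centred on it, 4 member pairs were stronger (Eif3g, Eef1akmt2, Eif4g1 and Eif1) and 3 weaker (the 5′ UTR peaks of Eif5b and Eif3m and the 3′ UTR peak of Eef2kmt), against 8.04% and 8.76% of all pairs. The members' median difference then turned from -0.24 to 0.065. Closest to the threshold were Eif2s2 (-1.04) inside and Eif4enif1 (-0.88) outside on the weaker side, and Eif3g (1.03) inside and Eef1akmt2 (0.93) outside on the stronger side.

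Factors that select the start codon and join the subunits gave 12 pairs in 7 genes, with a median difference of -0.19, 3 weaker and none stronger. They hold the strongest peak of all members. Eif5b, the GTPase that joins the large subunit at the end of initiation, carried a peak over its 5′ UTR (chromosome 9, 40222898 to 40245062, plus strand) with an enrichment of 11.72 at 3 weeks and 9.06 at 5 weeks. It ranked 6 of 29653 at 3 weeks and 197 of 33056 at 5 weeks, and its difference of -2.66 was the lowest of the 83 pairs. A second Eif5b peak over coding exons was at 7.94 and 6.86, while a further peak at the stop codon was nearly level at 2.40 and 2.26. Both strong peaks were weaker at 5 weeks, yet still among the most enriched of the members. The files hold no read counts behind these ratios. At both ages the 5′ UTR peak had a larger adjusted p over input than the exon peak, although its enrichment was higher. The deposited comparison table of the ages, described below, holds the exon peak of Eif5b but not the 5′ UTR peak.

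The stop codon peak of Eif1ad, which encodes a protein with an eIF1A-like domain, was at 4.42 and 3.15. Eif1a, which encodes the scanning factor eIF1A, was at 5.47 and 4.66 around its stop codon. Its X-linked relative Eif1ax had a 5′ UTR peak of 5.41 that was listed at 3 weeks alone, the highest of the 23 member peaks at 3 weeks without a partner, and its paired exon peak was at 2.07 and 2.33. Eif1a and Eif1ax encode nearly the same protein, so reads may be shared between them and their values are uncertain. In the other direction were Eif1, whose product keeps the scanning ribosome open until a start codon is met (1.60 at 3 weeks, 2.30 at 5 weeks), and Eif5, the activator of GTP hydrolysis on eIF2 (4.19 and 4.53). Both were higher at 5 weeks by less than 2-fold. The Eif1 peak spanned 325 bases at 3 weeks and 997 at 5 weeks. That of Eif5 spanned 3045 bases at 3 weeks and 4655 at 5 weeks, where the 3-week list holds a separate stop codon peak of 2.62.

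eIF2, the carrier of initiator tRNA, has 3 subunits. Eif2s1, whose protein is the target of the stress kinases, had a single stop codon peak at 3.37 and 2.68. Eif2s2 had 3 pairs that moved apart. Its peak over the start codon went from 4.74 to 5.11, whereas its 3′ UTR peaks went from 3.82 to 2.78 and from 2.42 to 2.18. Eif2s3 had an exon peak of 4.78 at 3 weeks and a stop codon peak of 2.62 at 5 weeks, which do not overlap and so were not compared. The alternative initiator tRNA carriers Eif2a (3.32 and 3.38) and Eif2d (3.08 and 2.82) differed little.

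The exchange factor eIF2B, which reloads eIF2 with GTP, had 6 peaks at 3 weeks and 5 at 5 weeks. Its regulatory subunit Eif2b2 (2.75) and Eif2b3, the partner of the catalytic subunit (2.32), had a peak at 3 weeks alone, and no other members did. Of all genes with a listed peak 4.76% were listed at 3 weeks alone and 8.5% at 5 weeks alone, against 2 and 5 of the 56 members (3.57% and 8.93%). The catalytic subunit Eif2b5 had a weaker stop codon peak (4.58 and 3.54) beside an exon peak that was slightly higher at 5 weeks (2.51 and 2.72). Eif2b4 was at 4.12 and 3.81, and Eif2b1 at 3.21 and 3.01. None of the 4 pairs of the group was stronger.

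All 4 eIF2 kinases had peaks at both ages, with 10 pairs and a median difference of -0.16, and none passed 2-fold. The strongest was Eif2ak3, which encodes the unfolded-protein sensor PERK (4.94 and 4.22 at the stop codon). Eif2ak4, which encodes the amino acid sensor GCN2, had 4 exon pairs, all lower at 5 weeks, from -0.67 to -0.04. In the pair at -0.67 the 3-week peak spanned 4257 bases and the 5-week peak 150. Eif2ak2, which encodes the double-stranded RNA sensor PKR, had a stop codon peak of 3.84 at 3 weeks, whose span was listed at 5 weeks as an exon peak of 3.23 and a separate stop codon peak of 3.20. Another exon peak was at 2.07 and 2.55. Eif2ak1, which encodes the haem-regulated kinase, was at 2.28 and 2.06 around the stop codon and 2.45 and 2.59 over the 5′ UTR.

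eIF3, the scaffold on the small subunit, was the largest group with 16 pairs in 10 genes, a median difference of -0.24, and both the 1 stronger pair of the members and a weaker one. Eif3g, an RNA-binding subunit that acts in scanning, was at 2.18 at 3 weeks and 3.20 at 5 weeks. The 3-week peak lay in exons over 1259 bases and the 5-week peak reached the start codon over 2216 bases, where the 3-week list holds a separate peak of 2.25 that ends at the same base. Eif3m was at 3.43 and 1.66 over its 5′ UTR, and there the 3-week peak spanned 2617 bases and the 5-week peak 225. The most enriched eIF3 peaks were those of the loosely bound subunit Eif3j (7.24 and 6.96) and of Eif3a, the backbone of the complex (7.16 and 6.67 over exons, 6.70 and 5.97 over the 3′ UTR). They ranked within the first 3% of each list and were lower at 5 weeks by less than 2-fold. Eif3c (4.48 and 4.80), the cap-binding subunit Eif3d (2.31 and 2.92) and Eif3e (2.08 and 2.63) were higher at 5 weeks, also by less than 2-fold. The Eif3d peak spanned 2623 bases at 3 weeks and 7106 at 5 weeks. Eif3i had a peak at 5 weeks alone (1.74), and Eif3k had peaks at both ages (2.80 at 3 weeks; 2.32 and 2.06 at 5 weeks) that did not overlap.

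The cap-binding complex eIF4F showed its largest difference in a scaffold. Eif4g3 had a stop codon peak at 5.33 and 4.26, while its start codon peak (4.37 and 4.30) and its 5′ UTR peak (4.81 and 4.75) were nearly level. Eif4g1, the main scaffold, had a stop codon peak of 3.53 over 3407 bases at 3 weeks, where the 5-week list holds 3′ UTR peaks of 175 bases, the paired one at 2.68. Its exon pairs were at 2.10 and 1.97 and at 2.35 and 3.09. Eif4e, the cap-binding protein itself, was at 3.31 and 3.67, and its relative Eif4e3 at 3.81 and 3.26. The paired Eif4e peak spanned 2597 bases at 3 weeks and 10501 at 5 weeks, where the 3-week list holds a separate peak of 2.24. The helicases Eif4a1 (1.92) and Eif4a3 (2.01), the latter a core protein of the exon junction complex, had a peak at 5 weeks alone. Over the 10 pairs the median difference was -0.10.

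Among the repressors of eIF4E, Eif4ebp1, the best known target of mTOR in translation, had a peak at 5 weeks alone (3.60 at the stop codon), the highest of the 41 member peaks at 5 weeks without a partner. Eif4ebp2, the form known for its role in brain, was lower over the 3′ UTR (2.26 and 1.74). Its other pair was higher at 5 weeks (1.87 and 2.23) and is labelled start codon at 3 weeks and stop codon at 5 weeks, spanning most of the gene at both. Eif4enif1, which carries eIF4E into the nucleus, was lower in all 3 pairs, most at the stop codon (2.31 and 1.42). The strongest peaks of the group are listed under Eif4ebp3 (5.67 and 4.99, and 5.28 and 5.09, both over exons). These are uncertain. The deposited model of that gene spans 105714 bases, 4 of its 5 peaks at 3 weeks lie on another transcript than its stop codon peak, and Ankhd1, the gene next to it in RefSeq, has no entry in either list. Without Eif4ebp3 the group had 5 pairs in place of 9, with the same median difference of -0.39. Eif5a, the hypusine-bearing factor, was at 2.15 and 1.98, and Eif6, which keeps the large subunit from joining too early, at 2.77 and 2.30.

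**Figure D2:**
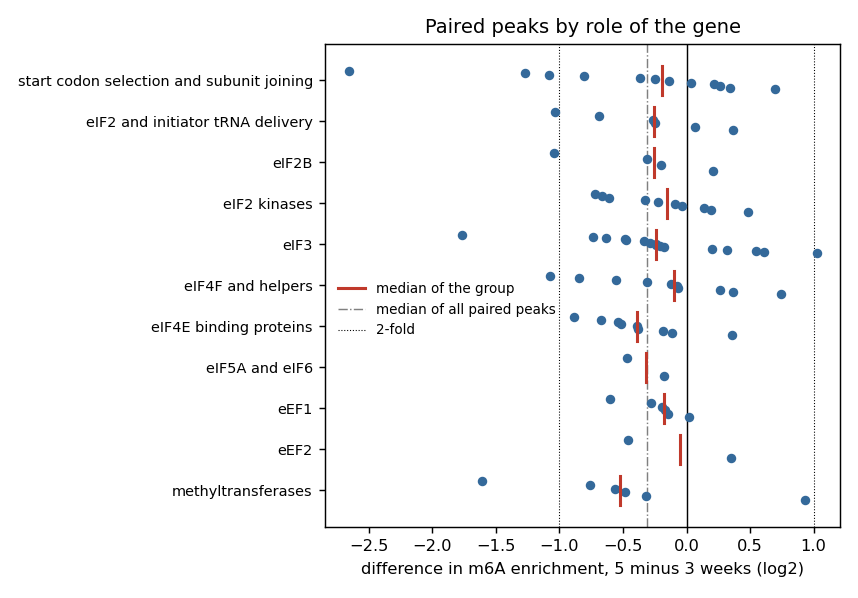
Each point is 1 paired peak, placed by its difference in log2 enrichment, 5 minus 3 weeks, in the row of its gene's role, with a red bar at the median of each group. Group medians lie between -0.52 (methyltransferases, 6 pairs) and -0.05 (eEF2, 2 pairs), and points past the dotted 2-fold lines come from 6 of the 11 groups.

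The elongation factors showed small differences in the pairs. The tRNA carrier eEF1A is made from Eef1a1 in most tissues (2.53 at 3 weeks, 2.33 at 5 weeks, 3′ UTR) and from Eef1a2 in mature neurons and muscle (3.48 and 3.31, 3′ UTR). Eef1a2 had 1 listed peak at 3 weeks and 5 at 5 weeks. An exon peak of it listed at 5 weeks alone stood at 2.11 and 2.35 in the deposited comparison table, described below. The model of Eef1a2 spans 79715 bases, and its 3′ UTR peak (168200592 to 168206167) lies apart from its other peaks (168253626 to 168274820). That 3′ UTR peak may therefore hold RNA of a neighbour, which was not tested. The exchange factor subunit Eef1g had a short 3′ UTR peak of 4.18 at 3 weeks alone and paired peaks at 2.59 and 1.99 and at 1.76 and 1.79. Eef1e1, a subunit of the multi-tRNA synthetase complex, was at 2.30 and 2.02. Eef2, the translocase, was at 3.49 and 3.03 over its 3′ UTR, and the kinase that inactivates it, Eef2k, at 2.46 and 2.82. Eef1b2, the nucleotide exchange subunit of eEF1, had a single peak, at 5 weeks alone (3.15, stop codon, chromosome 9, 64582326 to 64582737). None of the 8 eEF1 and eEF2 pairs passed 2-fold.

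The methyltransferases that modify lysines of these proteins had the lowest group median, -0.52 over 6 pairs. Eef2kmt, which acts on eEF2, was at 4.72 and 3.11 over its 3′ UTR. Eef1akmt1, which acts on eEF1A, was at 3.69 and 3.12 and at 2.55 and 2.06. The peaks of this second pair, of 2442 and 956 bases, share only 75 bases, and the pair is 1 of those that set the group median. Eef1akmt2, also an eEF1A methyltransferase, was lower over its 3′ UTR (3.93 and 3.17) and higher over its start codon (1.63 and 2.56). The model of Eef1akmt2 spans 140194 bases and that of Eif1 180564, so peaks of these genes may also hold RNA of a neighbour, which was not tested.

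Some translation factor messages begin with a terminal oligopyrimidine (TOP) tract, a cytosine followed by an uninterrupted run of pyrimidines at the 5′ end, through which mTOR and the protein Larp1 set their translation. Of 9 genes of these factors known as TOP messages, the 3-week list holds 5 and the 5-week list 6. Their 7 pairs had a median difference of -0.34, near the -0.31 over all pairs. Among them 2 were higher (28.6%, against 31% over all pairs) and 5 lower. None passed 2-fold, against 4.85% stronger and 15.6% weaker over all pairs. The windows from 10 bases before to 20 bases after the RefSeq start (GRCr8 assembly) are shown for Eef1b2, Eif1 and Eif3g. All of these have a peak stronger at 5 weeks in the deposited comparison table, and of these only Eef1b2 is among the 9 TOP messages. Eef1a1 and Eef2, which are also among the 9, are shown beside them. Eef2 has a stronger peak there too, which is doubtful as described below. Eif2ak2 also has a stronger peak there and is not shown. Capitals mark the longest run of C and T in each window.
Eef1b2: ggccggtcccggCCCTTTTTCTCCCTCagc
Eif1: gcgccgCCCCTCCgccccagtcactgagcc
Eif3g: gcgtggagtaggaCTTCgagatgccgactg
Eef1a1: ttggacgTTCTTTTTCgcaacgggtttgcc
Eef2: ccgcagccgccgccatcgtcggcgcgCTTC
They lie at chr9:72074081-72074110 (plus), chr10:85747127-85747156 (plus), chr8:27709927-27709956 (minus), chr8:88225050-88225079 (minus) and chr7:9189219-9189248 (minus). Eef1b2 has a run of 15 pyrimidines and Eef1a1 one of 9, against 7 in Eif1 and 4 in Eif3g. The run of Eef2 reaches the last base of the window, so its 4 bases are a minimum. None of these runs begins at the annotated start, counted as base 1. They begin at base 3 in Eef1b2, -3 in Eef1a1, -4 in Eif1, 4 in Eif3g and 17 in Eef2. The runs are therefore not shown to be TOP tracts. A run of at least 8 C or T on the transcribed strand was found in 7 of 54 such windows of 52 matched members (13%) and in 10.8% of all 33469. These matches describe the annotated starts only, and the start used in this tissue may lie elsewhere.

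The peaks of the members lay along the transcript much as those of other genes, with a larger share in exons. At 3 weeks 34.9% of member peaks lay in exons, against 27.8% of all peaks, and 17% lay at stop codons, against 24.6%. At 5 weeks the shares were 37.9% against 29.7% in exons and 19.4% against 22.9% at stop codons. By the label at 3 weeks, the median difference between the ages was -0.65 in the 16 member pairs at stop codons (-0.56 over all genes), -0.29 in 22 pairs of 3′ UTRs (-0.23), -0.10 in 30 exon pairs (-0.15), -0.21 in 10 start codon pairs (-0.28) and -0.31 in 5 pairs of 5′ UTRs (-0.24). In the members as over all genes, the lowest median was at stop codons and the highest in exons.

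**Figure D3:**
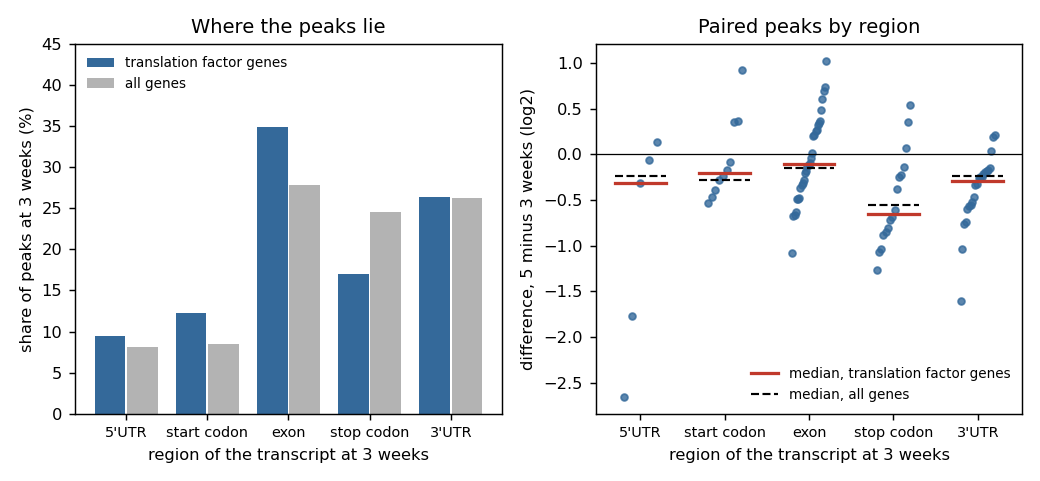
The left panel gives the share of 3-week peaks in each transcript region for the members (blue) and for all genes (grey). The right panel gives the difference, 5 minus 3 weeks (log2), of each member pair, with the members' median in red and that of all genes as a dashed black line, both lowest at the stop codon (-0.65 and -0.56).

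The same contrast was seen within single messages. In 20 member genes there were pairs both on the coding side (5′ UTR, start codon or exon) and at the 3′ end (stop codon or 3′ UTR). These sides are classes of the label at 3 weeks and not positions along the message. The exon peak of Eif2b5 lies next to its stop codon peak, and the start codon peak of Eif4g3 spans 203511 of the 223138 bases of its model. The mean difference on the coding side was above that at the 3′ end in 14 of these 20 genes (70%), and in 2625 of 4229 genes of the series (62.1%). With pairs on the same side at both ages alone, a choice made after the data were seen, these were 12 of 18 (66.7%) and 2485 of 4045 (61.4%). The gap was largest in Eef1akmt2 (0.93 against -0.54), Eif2b5 (0.21 against -1.04), Eif4g1 (0.31 against -0.85), Eif2s2 (0.37 against -0.64) and Eif4g3 (-0.07 against -1.07). Eif5b was the widest exception, with -1.87 on the coding side and -0.14 at the 3′ end.

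**Figure D4:**
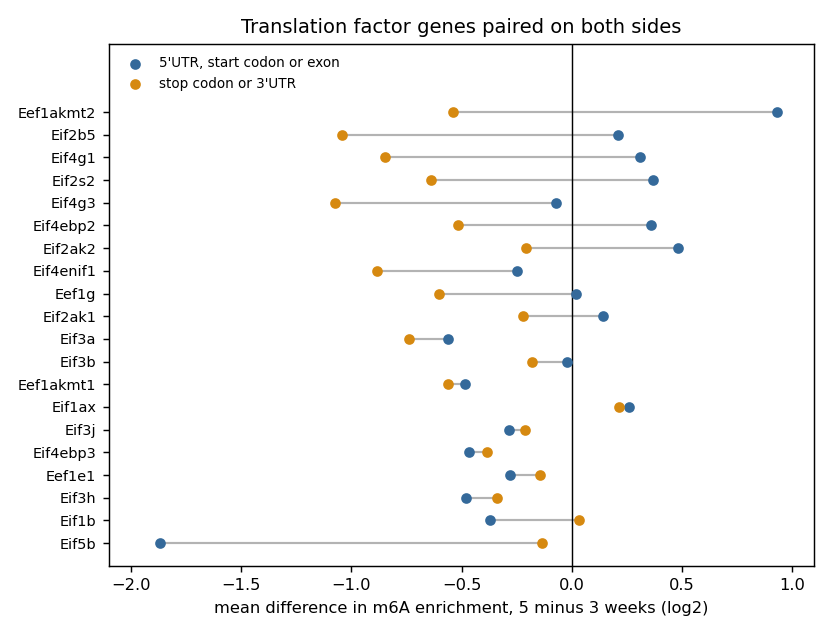
For each of the 20 member genes with pairs on both sides, the mean difference in log2 enrichment, 5 minus 3 weeks, is drawn for its peaks labelled at 3 weeks as 5′ UTR, start codon or exon (blue) and as stop codon or 3′ UTR (orange). The blue point lies to the right of the orange one in 14 genes, most widely in Eef1akmt2, and far to its left in Eif5b.

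Other features of the pairs moved with the difference. All pairs were put into 3 classes of equal size by their 3-week enrichment. In the lowest class the median difference was -0.14 in 43 member pairs and 0.02 over all pairs. In the middle class it was -0.39 in 21 member pairs and -0.34 over all, and in the highest class -0.67 in 19 and -0.78 over all. Since the difference is computed from the 3-week enrichment, the measures on which this rests are not independent. The extent of the peak moved with it as well: 20 of the 42 member pairs that were wider at 5 weeks were also higher, against 2 of the 31 that were narrower (42.8% and 18.1% over all pairs). In 8 member pairs an exon peak at 3 weeks became a start or stop codon peak at 5 weeks, and 7 of them were higher at 5 weeks (53.4% over all such pairs). The part of level and extent in the differences was not tested further.

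A second deposited table compares the ages directly and gives an enrichment at each age over 1 common peak. It holds peaks the authors selected for their difference, with 12704 peaks in all and 47 in 33 of the members, so its values describe a list chosen by change. Among the members 5 peaks were stronger and 18 weaker at 5 weeks, against 10.6% and 46.9% of the table (10.6% and 38.3% of the members). The median difference was -0.84 in the members and -0.95 over the table. Centred on the latter, 12 were stronger and 2 weaker, against 18% and 13.3% of the table, so that the split between the directions rests on the zero line.

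The 5 stronger peaks were in Eef2, Eif1, Eef1b2, Eif2ak2 and Eif3g. Eif1 stood at 0.82 at 3 weeks and 2.33 at 5 weeks, a larger difference (1.51) than in its pair of list peaks (0.70). Eef1b2, listed in the separate lists at 5 weeks alone, stood at 1.57 and 3.03. Eif3g stood at 2.30 and 3.36, close to its pair. Eif2ak2 had a short 3′ UTR peak at 1.07 and 2.52, and its stop codon peak went the other way, from 4.45 to 2.93. In the separate lists its paired 3′ UTR peaks differed little, at 2.21 and 2.40. The 5-week peak of that pair covers the short peak, and the 3-week peak does not reach it. The Eef2 peak labelled 5′ UTR, which spans 21136 bases of the genome (2.28 and 7.22), had the largest difference of the members, 4.94, but it is doubtful: it overlaps a listed peak of Eef2 at 3 weeks (2.30) and none at 5 weeks, and 12870 of its bases lie over Pias4 on the opposite strand. Without that peak, left out after the data were seen, 4 member peaks were stronger.

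The 18 weaker peaks were in 16 genes, led by Eif3m (3.83 and 1.34), a 3′ UTR peak of Eif1ad (4.11 and 1.76), Eef2kmt (4.73 and 2.93) and the stop codon peak of Eif4g1 (3.56 and 1.76). By region, 8 of 13 member peaks at stop codons and 7 of 14 in 3′ UTRs were weaker, against 2 of 11 in exons and none of 6 at start codons. Over all genes in it, 2219 of 4490 stop codon peaks, 1428 of 2810 3′ UTR peaks, 1152 of 3139 exon peaks and 443 of 1066 start codon peaks were weaker.

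**Figure D5:**
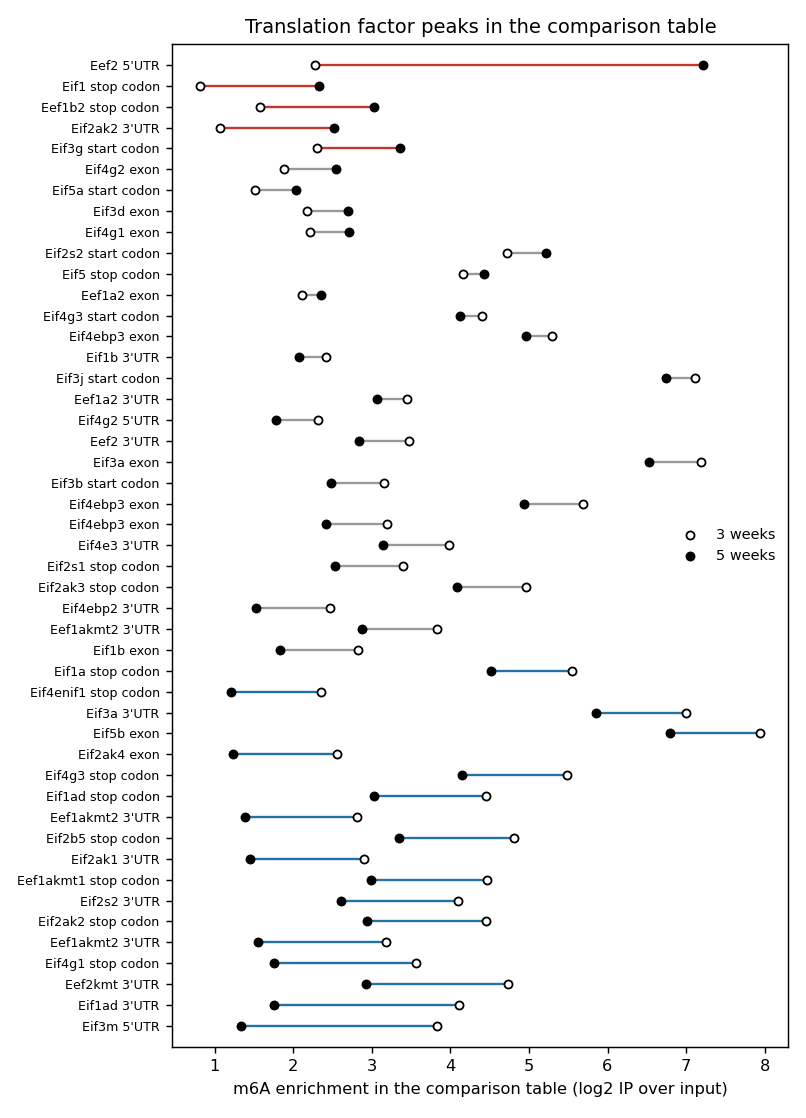
Each row is 1 of the 47 member peaks in the comparison table, with its log2 enrichment over input at 3 weeks (open) and at 5 weeks (filled), ordered by the difference. Red rows are at least 2-fold stronger at 5 weeks (5 peaks) and blue rows at least 2-fold weaker (18 peaks). The top row is the Eef2 peak that overlaps no listed peak at 5 weeks.

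Of 42 other genes of translation, each list holds 41, and their 69 pairs had a median difference of -0.13, with 6 stronger (8.7%, against 4.85% of all pairs) and 7 weaker (10.1%, against 15.6%). Over all pairs 31% were higher and 69% lower. The poly(A)-binding proteins and their partners had 10 of 17 pairs higher at 5 weeks and 4 stronger. The strongest of these was the start codon peak of Paip1, a partner of poly(A)-binding protein, at 3.97 and 6.46, named after its value was seen. The mitochondrial factor Gfm2, named likewise, had the lowest difference (4.61 and 1.94). Genes that make hypusine on eIF5A and diphthamide on eEF2 had 8 of 10 pairs lower and 2 weaker, termination and recycling factors 8 of 11 lower and 1 weaker, kinases and phosphatase subunits 7 of 9 lower and 1 weaker, and the nascent chain group 2 of 4 lower with 1 weaker and 1 stronger. Mitochondrial factors had 6 of 10 lower and 1 weaker, and the selenocysteine and reinitiation group 5 of 8 higher with 1 stronger and 1 weaker.

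The genes of cytosolic ribosomal proteins, which are the other large class of TOP messages, stood on the other side of zero in their middle value: 57 pairs had a median difference of 0.32, with 36 higher, 7 stronger (12.3%) and 3 weaker (5.26%), against -0.24, 23 of 83, 1 and 8 in the factors and 4.85% stronger and 15.6% weaker over all pairs. Of 48 ribosomal protein peaks in the comparison table, 14 were stronger (29.2%, against 10.6% of the table) and 3 weaker (6.25%, against 46.9%). The opposite signs rest on the zero line: centred on the median of all pairs, the factors' median was 0.065, so both medians would lie above 0. With 1 library of each kind per age the gap between the 2 classes was not tested.

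Of 14 genes that mark arcuate neurons, the 3-week list holds 8 and the 5-week list 10. Among these are Npy, Cartpt, Pdyn and Th at both ages and Pomc and Tac3 at 5 weeks. The presence of peaks alone cannot check the identity of the tissue. Agrp, Ghrh, Kiss1 and Esr1 had none, which says nothing of their expression, since the lists hold no expression level. Of 6 genes that mark the ventromedial nucleus, tanycytes or the pituitary, Col23a1 had a peak at each age and Fezf1 had 4 at 5 weeks. Whether the make-up of the dissected tissue differed between the ages was not tested, and in such pooled tissue fewer cells of a type and less methylation per message cannot be told apart.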

How the data were processed

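MeRIP-seq was performed on the ARC of female rats, with 1 input and 1 IP library per age from 3 pooled rats. The submitters' processing notes list fastp 0.19.4 and HISAT2 2.0.4, and the study's methods add Cutadapt. The peak caller was not given in the sources used here. A human assembly is named in those notes although all chromosomes and gene identifiers are of the rat, so coordinates (starts counted from 1) are those of the tables and carry no build name.

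The authors deposited, for each age, a list of peaks with the log2 fold change of IP over input and an adjusted p-value, the largest of which is 0.05 in both lists. Each of these compares reads of 1 IP with 1 input library. The authors also deposited a comparison table with a log2 enrichment per age; its columns of fold change, p-value and call between the ages were not used. Without read counts or input levels the depth is unknown, and no interval is given.

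Differences were computed as 5 minus 3 weeks on the log2 scale with Python 3.11.15 and pandas 2.3.3. Pairs needed an overlap of at least 1 base. Pairing was checked on simulated peaks that each had at most 1 possible partner, so the check does not cover split or merged peaks. Spans include introns. Alternatives changed the overlap, the fold, the centring and the adjusted p. Genes named by rule are members with a pair past 2-fold, the strongest peak of each role at 3 weeks, members listed at 1 age, Eif1 and Eef1b2; all others were named after their values were seen. Members, lists and roles were chosen with earlier results of these data known. All 56 members matched a RefSeq symbol.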

Additional observations from a re-analysis of the deposited data

How the results depend on the processing

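No paired analysis was possible because each group holds 1 library, so the ages share 1 replicate number alone, and no replicate could be left out. Over the paired peaks, the 1 stronger and 8 weaker member peaks became 5 and 20 at a fold of 1.5, and 4 and 3 when centred on the median of all pairs. Taking every overlapping pair gave 4 stronger, and 9 weaker. A reciprocal overlap of 50% gave 1 and 7, and an adjusted p under 0.01 at both ages gave 1 and 8. The median difference of -0.24 stayed between -0.28 and -0.24 under the other settings and turned to 0.065 under centring, which subtracts -0.31 from every pair. In the comparison table, the 18 weaker peaks became 29 at a fold of 1.5, and centring on the table's median of -0.95 gave 12 stronger and 2 weaker. Centring on the paired peaks gave 5 and 14. Leaving out Eif4ebp3, chosen after seeing the data, left the median difference at -0.24. Of the pairs past 2-fold, centring took those of Eif1ad, Eif4g3, Eif2b5, Eif2s2 and the exon peak of Eif5b under it. With no read counts in the files, the smallest difference that these libraries could show is unknown.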

Other observations

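Copies of translation factor genes that the choice of members left out also had peaks. Eif5-ps1, a copy of Eif5, was at 2.10 at 3 weeks and 4.86 at 5 weeks in the separate lists and at 2.47 and 4.78 in the comparison table, while Eif5 itself was at 4.16 and 4.43 in that table. Eif4g1-ps1 had 7 peaks at each age, and its 5 pairs ran from -0.75 to 0.59. Eif4a1-ps8 had 1 peak at each age (3.26 and 2.22). LOC100360413, described as an elongation factor 1-alpha-like gene, had 6 peaks at 3 weeks and 5 at 5 weeks, the 2 strongest pairs at 5.18 and 3.79 and at 5.10 and 3.09. These 2 pairs overlap on chromosome X (148480789 to 148481388 and 148480790 to 148481164), so they are not separate sites. Reads that match a gene and its copy equally well can be placed on either, so values of the copies and of Eif5, Eif4g1, Eif4a1 and Eef1a1 are uncertain to that extent.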
